A study of Rattus norvegicus with 10 samples.

Results

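Flt4, Vegfc, Dll4, Apln and Tie1 are genes of blood and lymphatic vessel signalling, and they were taken by symbol from a deposited table of 1319 genes of rat lung, of which they are 5. They were selected on measured values of the same libraries: each has an unadjusted p-value under 0.05 for knockout against wild type in the authors' deposited table, as all genes of that table do. Their differences between genotypes are therefore given as a description, with no test of them.

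The groups were 5 Cmg2-KO libraries, from rats lacking Cmg2, and 5 WT libraries, all from whole lung of Sprague Dawley rats aged 8 weeks. Cmg2 encodes capillary morphogenesis gene 2 protein, a membrane receptor that binds matrix proteins and anthrax toxin. The labels give neither the kind of allele nor the number of animals behind each group, and the spread among libraries may be technical in part. The transcript of the targeted gene was not analysed here, and the genotype labels have no check from it. Values are scaled counts, which the authors obtained by dividing the reads of each gene by a size factor of its library. Between 1289524 and 1620198 reads of each library fell in the listed genes, and total depth is unknown.

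Vessel growth is steered by secreted ligands and by receptors on endothelial cells. VEGF-C, the product of Vegfc, activates the tyrosine kinase receptor encoded by Flt4 and is best known for driving the growth of lymphatic vessels. Dll4 is a membrane-bound ligand that signals to Notch receptors on neighbouring endothelial cells and restrains sprouting. Apelin, from Apln, is a peptide ligand of a G protein-coupled receptor and in mouse lung marks capillary endothelial cells specialised for gas exchange. Tie1 is an endothelial receptor tyrosine kinase with no ligand of its own firmly assigned, and it modulates the angiopoietin receptor Tek.

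The regions just before the start of Flt4, Vegfc and Tie1 are shown because they hold the ligand and receptor that differed in the same direction and the single gene that differed in the other. They are RefSeq sequences of build GRCr8, written 5′ to 3′ on the strand of the gene and ending at the base before the RefSeq gene record. For Tie1 the start site used in the promoter table lies inside that record, so that 66 of the 250 bases before it are not shown. They lie at chr10:34414584-34414833 (plus strand), chr16:44560888-44561137 (minus strand) and chr5:137305048-137305231 (minus strand). Capitals mark a match to a searched motif.
Flt4: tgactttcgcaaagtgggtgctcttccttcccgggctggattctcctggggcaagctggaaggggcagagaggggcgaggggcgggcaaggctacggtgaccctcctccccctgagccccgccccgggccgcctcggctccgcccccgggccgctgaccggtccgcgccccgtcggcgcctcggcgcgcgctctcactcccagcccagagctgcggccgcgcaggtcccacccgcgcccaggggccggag
Vegfc: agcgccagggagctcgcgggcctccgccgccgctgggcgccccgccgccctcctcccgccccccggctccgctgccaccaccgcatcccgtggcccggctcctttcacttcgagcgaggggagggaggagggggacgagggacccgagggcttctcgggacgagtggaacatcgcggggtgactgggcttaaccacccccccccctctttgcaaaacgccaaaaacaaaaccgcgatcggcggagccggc
Tie1: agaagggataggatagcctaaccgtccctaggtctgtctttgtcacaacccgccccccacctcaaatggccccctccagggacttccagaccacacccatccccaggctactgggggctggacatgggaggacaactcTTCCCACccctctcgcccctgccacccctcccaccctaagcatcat

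RefSeq promoters were matched for 4 of the 5 genes (Flt4, Vegfc, Apln and Tie1), and the 250 bases before each start site in the promoter table were searched on both strands for 6 motifs. GTGGGAA, the core bound by the Notch partner RBPJ, was matched in Tie1 alone among the 4, on the reverse strand 106 to 112 bases before that site and 40 to 46 bases before the gene record, and in 5.27% of all 33469 rat promoters over the same 250 bases. AACAAAG, a SOX motif, was matched in Apln alone among the 4, on the reverse strand 212 to 218 bases before its start site, and in 5.14% of all promoters. For Apln all 250 bases lie inside the RefSeq gene record, and none are shown. The hypoxia core ACGTG, the ETS motif CCGGAAG, the GATA motif AGATAA and the TATA box TATAAA were matched in none of the 4, against 16.6%, 7.27%, 10.3% and 12.9% of all promoters. The upstream regions of Flt4 and Vegfc were rich in G and C, at 76% and 72.4%, against 64.8% in Apln, 61.6% in Tie1 and a median of 51.2% over all promoters.

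Of the 5 genes, 4 stood higher in Cmg2-KO lung (Flt4, Vegfc, Dll4 and Apln) and 1 stood lower (Tie1). The differences were small. The ratios of the Cmg2-KO mean to the WT mean lay between 1.16 and 1.26 for the higher genes, and the ratio was 0.843 for Tie1. The 2 genotypes overlapped in each of the 5 genes, and 16.3% of the 1319 listed genes had no overlap. With a single WT library left out, 4 of the 5 no longer overlapped. That library was WT 2 for both Flt4 and Apln, WT 5 for Vegfc and WT 1 for Tie1. Among the 1319 listed genes, 934 showed no overlap once at most 1 library of either genotype was left out. By the adjusted p of the authors' deposited table, 0 of the 5 lay under 0.05, against 0.362% of the 19894 genes behind that adjustment, while all 5 lay under 0.05 unadjusted, by which they were chosen.

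**Figure D1:**
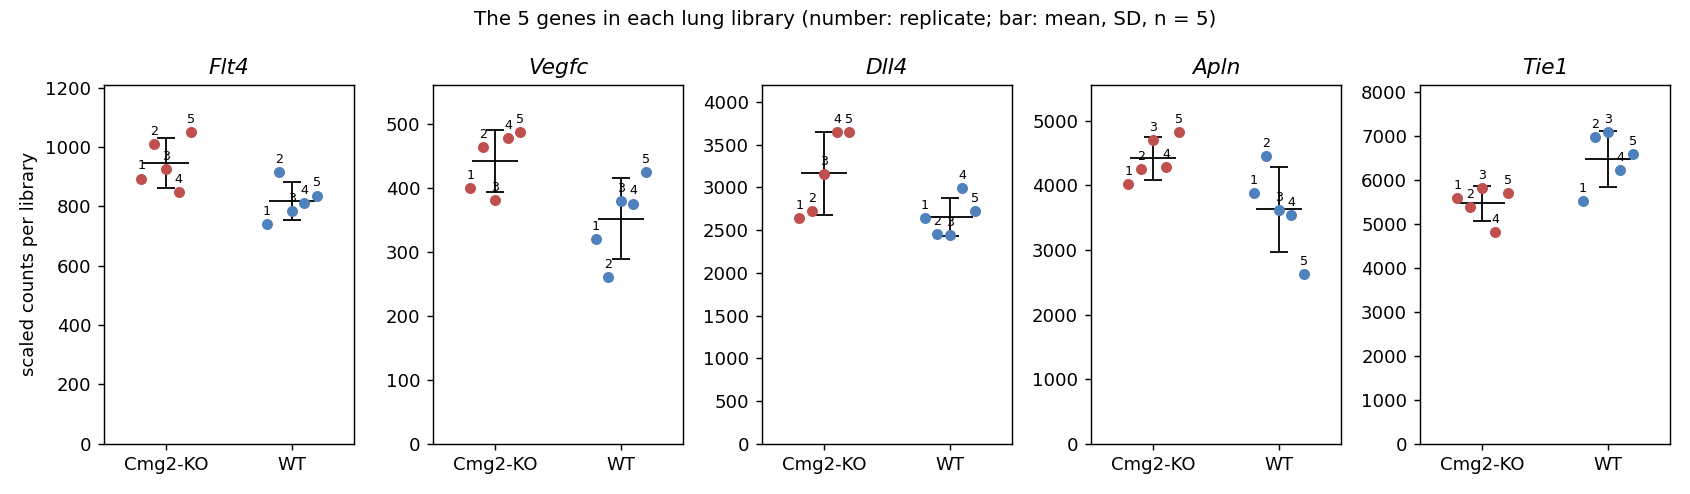
Scaled counts (vertical axis, from 0) of Flt4, Vegfc, Dll4, Apln and Tie1 in the 5 Cmg2-KO libraries (red) and the 5 WT libraries (blue). Points are libraries numbered by replicate, and bars give the mean and SD. In Flt4 and Apln the WT 2 point lies within the Cmg2-KO range, and in Tie1 the WT 1 point does.

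Vegfc, the lymphatic growth factor, had the largest log2 difference of the 5 in size. It stood at 401, 464, 382, 479 and 489 scaled counts in Cmg2-KO 1 to 5, against 320.0, 260.3, 381, 376 and 425 in WT 1 to 5. WT 2 was the lowest of all libraries, and WT 5, the highest WT library, lay within the Cmg2-KO range. The means were 443 ± 48.3 in Cmg2-KO and 352 ± 63.5 in WT (SD, n = 5 each). The log2 fold change was 0.34 ± 0.13 (SE, limma fit) and became 0.24 without WT 2. Of the 25 possible pairs of a Cmg2-KO and a WT library, 23 had the higher value in Cmg2-KO. Vegfc had the fewest reads of the 5 genes, 251 to 528 per library, and counting error alone gives a coefficient of variation of 4.99%, against 10.9% measured among Cmg2-KO and 18.0% among WT libraries.

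Flt4, the receptor for VEGF-C, had 893, 1010.4, 925, 848 and 1051 scaled counts in Cmg2-KO 1 to 5. In WT 1 to 5 it had 740.5, 914, 785, 812 and 836. Cmg2-KO 2, 3 and 5 lay above all WT libraries, and WT 2 was the only WT library within the Cmg2-KO range. Means were 946 ± 83.7 in Cmg2-KO and 817 ± 64.5 in WT (SD, n = 5 each), with a log2 fold change of 0.21 ± 0.08 (SE), the smallest in size of the 5. Flt4 varied little among libraries of a genotype, by 8.85% in Cmg2-KO and 7.89% in WT (coefficient of variation), with 3.35% from counting.

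Dll4, the Notch ligand, stood at 2638, 2723, 3156, 3649 and 3652 scaled counts in Cmg2-KO 1 to 5, against 2641, 2458, 2441, 2991 and 2719.7 in WT 1 to 5. Cmg2-KO 3, 4 and 5 lay above all WT libraries, while Cmg2-KO 1 and 2 lay among the WT values. Means were 3163 ± 486 in Cmg2-KO and 2650.2 ± 225 in WT (SD, n = 5 each), with a log2 fold change of 0.25 ± 0.10 (SE). It was higher in Cmg2-KO in 21 of the 25 pairs of libraries. It was the 1 gene of the 5 whose genotypes still overlapped after any 1 WT library was set aside.

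Apln, the apelin precursor gene, had 4028, 4259, 4708, 4279 and 4833 scaled counts in Cmg2-KO 1 to 5, and 3888, 4452, 3627, 3548 and 2631 in WT 1 to 5. WT 2 lay within the Cmg2-KO range, WT 5 lay far below the rest, and the other WT libraries lay below all of Cmg2-KO. Means were 4421 ± 336 in Cmg2-KO and 3629 ± 661 in WT (SD, n = 5 each). The log2 fold change was 0.30 ± 0.12 (SE). It became 0.19 ± 0.08 without WT 5 and 0.38 ± 0.11 without WT 2. The coefficient of variation was 7.61% in Cmg2-KO and 18.2% in WT, with 1.57% from counting.

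Tie1 stood at 5591, 5391, 5816, 4803 and 5708 scaled counts in Cmg2-KO 1 to 5, against 5507, 6971, 7093, 6232 and 6579.6 in WT 1 to 5. WT 1 lay within the Cmg2-KO range and the other 4 WT libraries lay above it. Means were 5462 ± 401 in Cmg2-KO and 6477 ± 639 in WT (SD, n = 5 each), with a log2 fold change of -0.24 ± 0.08 (SE). Tie1 was lower in Cmg2-KO in 22 of the 25 pairs of libraries. It was the most deeply counted of the 5, with 5081 to 6721 reads per library.

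**Figure D2:**
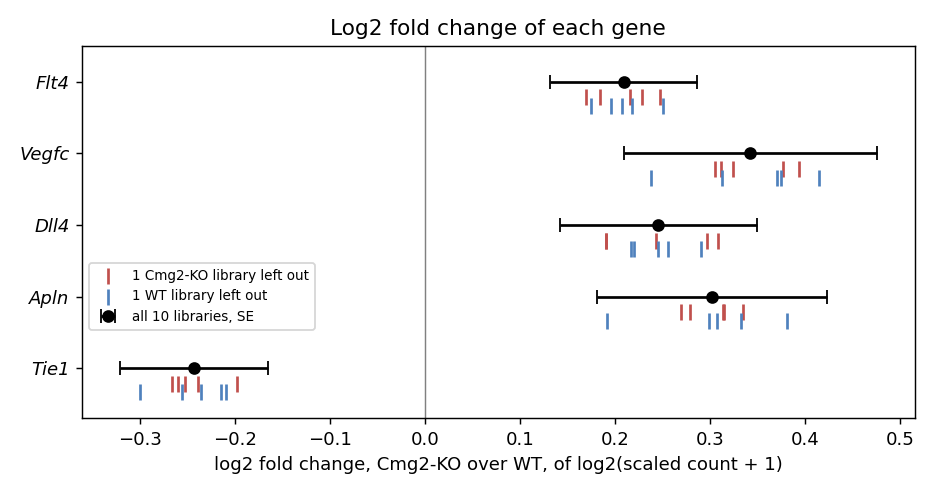
Log2 fold change (Cmg2-KO over WT, horizontal axis) of each gene, with the SE of the limma fit as the error bar on the black point. Red and blue ticks give the value with 1 Cmg2-KO or 1 WT library left out. The ticks of Apln reach from 0.19 to 0.38 and those of Vegfc from 0.24 to 0.41, and no tick crosses 0.

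In the authors' deposited table the unadjusted p-values that chose the genes were 0.00388 for Tie1, 0.0146 for Flt4, 0.0174 for Vegfc, 0.0224 for Dll4 and 0.0228 for Apln. The corresponding adjusted p-values in that table lay between 0.293 for Tie1 and 0.587 for Apln. By the unadjusted p, Tie1 ranked 264 and Apln 772 among the 1319 listed genes, whose highest p was 0.04998. The 5 genes differed less in size than most of the table, since the median absolute log2 fold change of the listed genes was 0.47. Their median log2 fold change was 0.25, against -0.15 over the listed genes tested. By mean scaled count, Tie1 stood above 97.0% of the listed genes, Apln above 94.9% and Dll4 above 92.5%. Flt4 stood above 75.3% and Vegfc above 62.5%.

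Other genes of these pathways were counted from lists that are named with the methods. The 5 genes were the only ones of 44 vessel-signal symbols in the table, where Figf and Vegfd are symbols of the same gene. The table itself holds 6.63% of the 19894 genes behind the authors' adjustment, 3.2% as higher and 3.43% as lower in Cmg2-KO. Vegfc was 1 of 6 VEGF ligand symbols and Flt4 1 of 5 VEGF receptors and co-receptors. Dll4 was 1 of 17 Notch ligands, receptors and targets, Apln 1 of 3 apelin pathway genes and Tie1 1 of 7 genes of the Tie and angiopoietin group. Of 6 genes that process VEGF-C, such as Ccbe1 and Adamts3, 0 were listed. The remaining genes were not analysed here, and nothing is shown about their levels.

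Levels were compared between genes after division by the length of the gene model in the authors' table. The scaled counts per kb in Cmg2-KO averaged 1438 ± 109 for Apln, 1194 ± 87.6 for Tie1, 694 ± 107 for Dll4, 208 ± 22.7 for Vegfc and 165 ± 14.6 for Flt4 (SD, n = 5). In WT they averaged 1180.3 ± 215 for Apln, 1416 ± 140 for Tie1, 581 ± 49.3 for Dll4, 165 ± 29.8 for Vegfc and 143 ± 11.3 for Flt4 (SD, n = 5). The ligand Apln and the receptor Tie1 thus changed places at the top. Per length, Apln exceeded Tie1 in 5 of 5 Cmg2-KO libraries, by a ratio of 1.07 to 1.33, and in 1 of 5 WT libraries, where the ratio ran from 0.595 to 1.05. The ratio did not overlap between the genotypes, and it combines 2 genes already chosen for opposite differences.

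The ratio of the ligand Vegfc to its receptor Flt4 per length differed between genotypes by less than the spread of the libraries. It averaged 1.26 ± 0.15 in Cmg2-KO and 1.17 ± 0.24 in WT (SD, n = 5 each). Vegfc was above Flt4 in 5 of 5 Cmg2-KO libraries and in 4 of 5 WT libraries. WT 2 was the exception, at 0.765. In WT, neighbours in the order by length overlapped in their libraries at the top (Tie1 and Apln) and at the bottom (Vegfc and Flt4), while Dll4 stood apart from both. In Cmg2-KO, Apln and Tie1 did not overlap and Vegfc and Flt4 did.

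**Figure D3:**
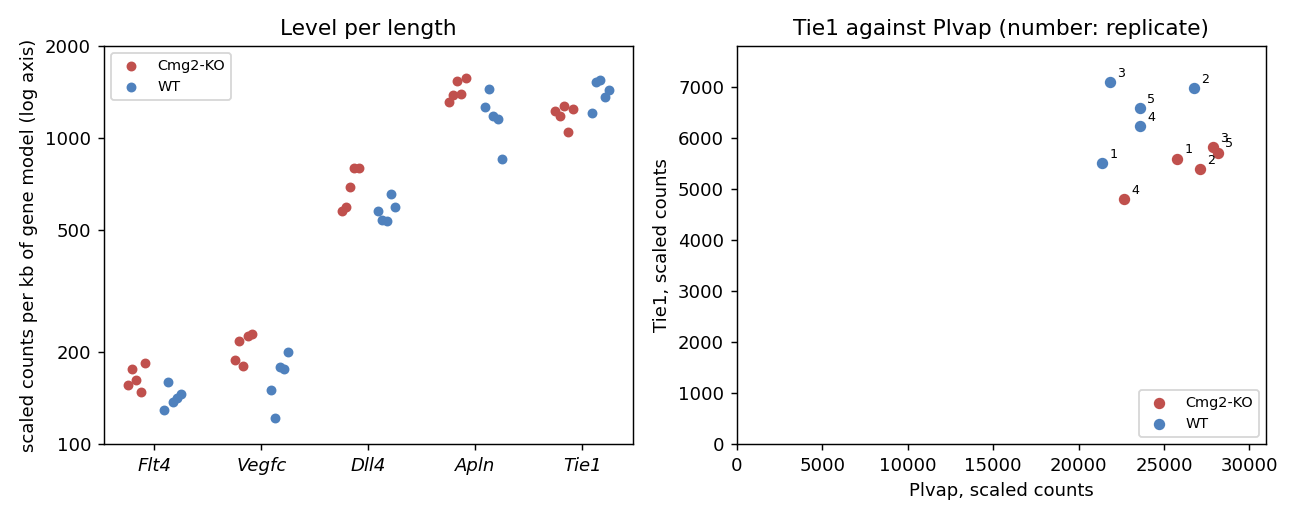
Left, scaled counts per kb (log axis) of the 5 genes in Cmg2-KO (red) and WT (blue) libraries, where Apln and Tie1 lie highest and Flt4 and Vegfc lowest. Right, Tie1 against Plvap in scaled counts, with libraries numbered by replicate. The Cmg2-KO points lie below the WT points at like Plvap, at 199 to 217 Tie1 per 1000 Plvap against 258 to 325. Both genes were listed for this contrast, in opposite directions.

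In whole lung RNA, fewer cells of a type and less RNA per cell cannot be told apart. The endothelial marker lists held 58 symbols, of which 4 were in the table. That share is near the 6.63% that the table holds of all 19894 genes. Of 17 shared endothelial markers, such as Pecam1 and Cdh5, 0 were listed, nor were any of 8 lymphatic or 7 venous markers. Apln itself was the 1 listed gene of 8 markers of gas-exchange capillary cells. Plvap was the 1 listed gene of 9 general capillary markers and encodes the protein of endothelial diaphragms. It averaged 26304 ± 2237 scaled counts in Cmg2-KO and 23437 ± 2112 in WT (SD, n = 5 each), a log2 fold change of 0.17 ± 0.08 (SE).

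Set against Plvap in each library, the log2 difference of Flt4 came close to 0 and that of Tie1 grew in size. Flt4 had 36.0 ± 1.92 scaled counts per 1000 of Plvap in Cmg2-KO and 34.9 ± 0.74 in WT (SD, n = 5 each), a log2 difference of 0.04. Tie1 had 208 ± 7.26 per 1000 of Plvap in Cmg2-KO and 277 ± 27.7 in WT, a log2 difference of -0.41 with no overlap of the libraries. Vegfc, Dll4 and Apln had log2 differences of 0.18, 0.08 and 0.14 on this scale. Division by Plvap takes its own log2 difference of 0.17 from that of each gene, so these shifts follow from it. Tie1 and Plvap were listed for opposite differences, which their ratio combines. Plvap was itself listed for the same contrast and this scale was chosen after the values were seen, so these are descriptions.

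Of the arterial markers 2 of 9 were listed, 1 higher and 1 lower in mean in Cmg2-KO. Listed markers were all selected on this contrast, and the table holds 6.63% of all 19894 genes. Gja5, the arterial gap junction gene, averaged 1984 ± 214 scaled counts in Cmg2-KO and 1639 ± 58.9 in WT (SD, n = 5 each), and 22 of 25 pairs of libraries were higher in Cmg2-KO. The netrin receptor gene Unc5b, a tip cell marker, averaged 2106 ± 334 in Cmg2-KO and 1738 ± 145 in WT. Tip cell markers had 3 of 8 symbols listed, all higher in mean, and 2 of these were Dll4 and Apln themselves. Dkk2, a secreted Wnt modulator on the arterial list, was the opposite, at 85.3 ± 10.7 in Cmg2-KO and 122 ± 28.7 in WT. It was lower in Cmg2-KO in 21 of 25 pairs of libraries.

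Listed markers of other cell types also differed in mean between the genotypes, as all listed genes do by their selection. The table holds 6.63% of all 19894 genes, against which the counts below can be set. Of 12 pericyte and smooth muscle markers 8 were listed, all lower in mean in Cmg2-KO, with summed levels of 22437 to 33135 scaled counts in Cmg2-KO and 27565 to 43523 in WT. Of 7 mesothelial markers 4 were listed, all higher, with sums of 2328 to 4451 in Cmg2-KO and 1940.1 to 3348 in WT. Of 8 fibroblast markers 2 were listed, both lower, summing to 1509 to 2669 in Cmg2-KO and 1957 to 5256 in WT. The lung epithelial genes Sftpb and Scgb1a1, 2 of 11 on their list, summed to 126338 to 218681 in Cmg2-KO and 196355 to 240903 in WT. The macrophage list had 1 of 8 symbols, Siglec5, at 297 to 431 in Cmg2-KO and 359 to 623 in WT. The part of these cell types in the differences of the 5 genes was not tested.

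To see whether the 5 genes varied together apart from genotype, each library's log2 value was set against the mean of its genotype and correlated between genes over the 10 libraries. None of the 10 pairs passed the exact permutation test, which reorders libraries within each genotype (two-sided, Benjamini-Hochberg over 10 pairs, lowest adjusted p = 0.415), and 0 had an unadjusted p under 0.05, with Pearson's r or with Spearman's rho. Of the 10 values of r, 5 were positive and 5 negative. The most positive was Flt4 with Tie1, at r = 0.60 (exact permutation p = 0.0825) and rho = 0.45 (exact permutation p = 0.207). The pair of receptors thus gave the highest r within genotypes although their means differed in opposite directions between genotypes. With the 2 libraries farthest from the median of Flt4 left out, r was 0.52.

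The most negative pair was Vegfc with Apln, at r = -0.69 (exact permutation p = 0.0829) and rho = -0.37 (exact permutation p = 0.337). This value leaned on WT 2, with low Vegfc and high Apln, and on WT 5, with high Vegfc and low Apln, and r was -0.45 without the 2 libraries farthest from the median of Vegfc. Vegfc with Dll4 gave r = 0.43 (exact permutation p = 0.166) and rho = 0.51 (exact permutation p = 0.136), and r was 0.48 with the 2 farthest libraries left out. The ligand Vegfc and its receptor Flt4 gave r = -0.10, with an exact permutation p of 0.795.

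**Figure D4:**
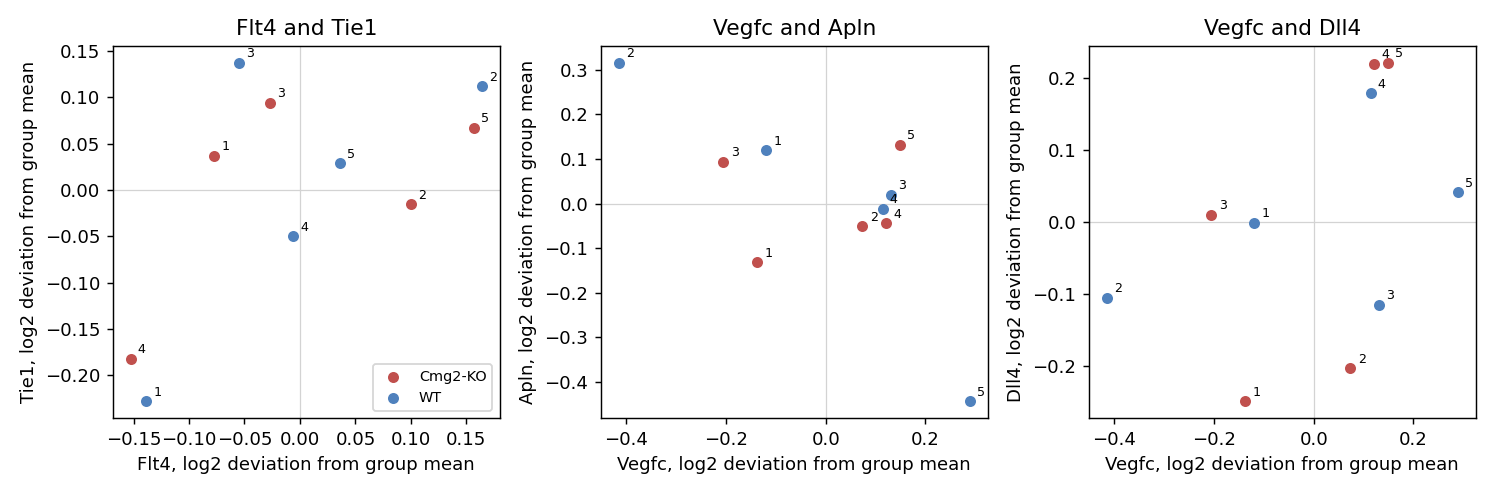
Log2 deviation of each library from its genotype's mean for Flt4 and Tie1, Vegfc and Apln, and Vegfc and Dll4, with Cmg2-KO in red, WT in blue and replicates numbered. WT 2 and WT 5 lie at opposite corners of the middle panel, and Pearson's r over the 10 libraries is 0.60, -0.69 and 0.43 from left to right.

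The listed genes closest to each of the 5 in this within-genotype pattern were taken from 805 genes with a mean of at least 50 scaled counts and a full symbol, as the highest Pearson's r over the 10 libraries. For Flt4 they were Lrrc4 (r = 0.94), the C-type lectin receptor gene Clec1a (r = 0.89) and Plvap (r = 0.89). For Tie1 they were Ankdd1a (r = 0.86), the interferon-induced gene Rtp4 (r = 0.85) and the kinase gene Alpk3 (r = 0.85).

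For Vegfc the closest were the dynamin gene Dnm3 (r = 0.89), the LIM protein gene Ajuba (r = 0.89) and Smad2 (r = 0.85), which encodes a transducer of TGF-beta signals. For Dll4 they were the collagen gene Col16a1 (r = 0.93), Exoc7 of the exocyst complex (r = 0.90) and the complement protease gene C1r (r = 0.87). For Apln they were the tight junction gene Cgn (r = 0.94), Fxyd2, a regulator of the sodium pump (r = 0.91), and Aldh3b1, an aldehyde dehydrogenase (r = 0.90). Of these 15 genes, 9 had a log2 fold change between genotypes of the same sign as the gene they were most like, and 6 had the opposite sign. The 6 were Clec1a (-0.29), Dnm3 (-0.36), Exoc7 (-1.31), Fxyd2 (-0.31), Aldh3b1 (-0.29) and Rtp4 (0.20). The r values are the highest of many over few libraries and are given as a description of likeness only.

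The genes lie on different chromosomes, with coordinates as the authors' table gives them, whose build is not given in the sources used here. Flt4 is on chromosome 10 (35078726 to 35121599, plus strand), Vegfc on chromosome 16 (40440207 to 40555576, minus strand) and Dll4 on chromosome 3 (111135021 to 111145986, plus strand). Apln is on chromosome X (134856726 to 134866210, minus strand) and Tie1 on chromosome 5 (137294544 to 137321121, minus strand).

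Dll4 had the closest listed neighbour, an unnamed gene model of the authors on the minus strand (111129378 to 111135018) that ends 2 bases before Dll4 begins, so that the 2 models start beside each other and run apart. The model stood at 385, 407, 467, 407 and 491 scaled counts in Cmg2-KO 1 to 5, against 371, 315, 417, 390.3 and 358 in WT 1 to 5. It was higher in mean in Cmg2-KO like Dll4, with overlap, at 431 ± 45.0 in Cmg2-KO and 370.3 ± 38.1 in WT (SD, n = 5 each) and a log2 fold change of 0.22 ± 0.10 (SE). Dll4 had 7.34 ± 0.95 times its scaled counts in Cmg2-KO and 7.21 ± 0.80 times in WT (SD, n = 5 each). Within genotypes the 2 gave r = 0.46 over the 10 libraries. The 2 models share no bases. The library kit as named is not stated to keep strand, so reads at the edge between them cannot be assigned by strand.

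The other neighbours lay farther away. Smarca1, a chromatin remodelling ATPase gene 138 kb from Apln on the X chromosome, showed no overlap, with each Cmg2-KO library above each WT library, at 266 ± 57.7 scaled counts in Cmg2-KO and 171 ± 7.12 in WT (SD, n = 5 each). RGD1305347, 35.7 kb from Tie1, was lower in mean like Tie1, at 211 ± 18.9 in Cmg2-KO and 246 ± 21.5 in WT. Gpm6a, a membrane glycoprotein gene 721 kb from Vegfc, was higher in mean, at 1336 ± 271 in Cmg2-KO and 958 ± 315 in WT. Olr1395, an olfactory receptor gene 385 kb from Flt4, had at most 3 reads in any library.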

How the data were processed

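RNA from flash-frozen lung was made into NEBNext Ultra libraries, per the labels' protocols, and the submitters' processing notes name HISAT2 2.0.5 and featureCounts 1.5.0-p3. The sources used here give no build, annotation or testing tool. The deposited table holds 10 library columns of a signal (read counts divided by 1 size factor per library), the authors' mean signal of each genotype, their log2 fold change, fold ratio, p-values and adjusted p-values, and gene lengths, per the file headers and the values. All values (100%) were whole multiples of 1 read within 0.02 reads, where 1 read was worth 0.869 to 1.11 scaled counts. For WT 4 that worth, 1.01, is close to 1 and could not be told from rounding by an automatic check. For all but 6 listed genes, the deposited adjusted p-values were within 1% of those that Benjamini and Hochberg's method gives over 19894 genes.

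Log2 fold changes (Cmg2-KO over WT) and SEs came from limma 3.58.1 (trend, robust) in R 4.3.3 on log2(scaled count + 1), fitted to the 1308 genes above 0.5 in at least 5 libraries. This scale understates the change of low genes. No p-value was taken from this fit for the 5 genes. All genes fitted had been listed for this same contrast. The fit pools their spread, so its SEs may be too small. Relations between genes used an exact permutation test within genotypes. Methods were tested on simulated data. Replicate numbers, from the labels, were left out of the main fit. Alternatives were other pseudocounts (0.5 and 5), no filter, TMM and median-of-ratios scaling, no trend, edgeR 4.0.16 and DESeq2 1.42.0 on recovered reads, a replicate block, and leaving out each library. Lists covered VEGF ligands and receptors, VEGF-C processing, Notch, apelin and Tie genes, and markers of endothelial (shared, lymphatic, capillary, arterial, venous, tip), pericyte and smooth muscle, fibroblast, mesothelial, epithelial and macrophage cells. Named genes were the 5, all listed vessel-signal genes, the 3 genes most like each and its nearest listed gene. The 5 genes and the lists were chosen with earlier results of these data known.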

Additional observations from a re-analysis of the deposited data

Results flagged for a closer look

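Dkk2, the Wnt modulator on the arterial marker list, had 72.6 scaled counts in WT 2, against 121 to 139 in the other WT libraries. The gap between WT 2 and the next library exceeded Dixon's 95% limit for 5 values (0.71 of the range on the log2 scale). Only 1 of the 26 groups of 5 libraries examined was marked in this way, and chance marks about 1 in 20. The value of WT 2 lay within the Cmg2-KO range of 70.7 to 97.4. In the same library Vegfc was the lowest of the 10 and Flt4 the highest of WT.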

How the results depend on the processing

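The log2 fold changes of the 5 genes kept their direction and moved by less than 1 SD between replicates in all 19 alternatives each. Leaving out 1 of 5 libraries cannot move a group mean by 1 SD, so that limit could not fail there. It could not fail either with no filter, with no trend or with the replicate block, which change only the SE. The genes were also chosen for a difference in these same libraries. Apart from leaving out libraries they lay between 0.207 and 0.210 for Flt4, 0.330 and 0.342 for Vegfc, 0.244 and 0.255 for Dll4, 0.285 and 0.302 for Apln, and -0.246 and -0.243 for Tie1. With each library left out in turn the ranges were 0.17 to 0.25, 0.24 to 0.41, 0.19 to 0.31, 0.19 to 0.38 and -0.30 to -0.20 in the same order. No pair of the 5 genes passed the test of relation within genotypes in any of 15 alternatives. The replicate block is balanced over the genotypes and so cannot move the log2 fold changes (0.21 for Flt4, 0.34 for Vegfc, 0.25 for Dll4, 0.30 for Apln and -0.24 for Tie1). It changed the SE of Dll4 to 0.074 and that of Apln to 0.13. Same-numbered libraries deviated together only weakly (correlations of -0.016 to 0.087), so the numbers were not taken to pair them. Over all listed genes limma called 3 genes without the block and 0 with it, edgeR 2 and DESeq2 66 on recovered reads, each adjusted over 19894 genes, the cause of the gap not being tested. Depth limits Vegfc most, and genes outside the table were not analysed here.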
